A study of Mus musculus with 3 samples.

Results

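Dermal fibroblasts that lack a functional fibroblast growth factor receptor 3 (FGFR3) were compared with wild-type dermal fibroblasts, gene by gene, on 1 expression array each. The series holds 3 arrays of cultured mouse dermal fibroblasts, and 2 of them enter this comparison. The array labelled FGFR3KO came from mice with the Fgfr3 allele written FGFR3G374Rneo+, described as lacking functional FGFR3, and the array labelled FGFR3WT from wild type Bl6 mice. The remaining array, FGFR3Act, came from mice with the allele Fgfr3G374Rneo-, in which the receptor is active without ligand, and its signals are given beside the others as a point of reference. G374R is an amino acid substitution in FGFR3, so that both mutant alleles carry the same coding change and differ in the element written neo, usual shorthand for a neomycin selection cassette. All cells were grown in fibroblast growth medium without treatment. Zygosity, the age and sex of all mice, the strain of the mutant mice and the number of animals per culture were not stated in the labels. The series' design text states n = 3 for each group, but the deposited table has 1 column of signals per genotype, and the labels do not say whether it stands for a single culture, pooled cultures or an average. With 1 array per group there is no replicate error, no test and no p-value. Every difference below therefore describes these arrays, and genotype, strain, sex, culture and hybridisation cannot be told apart.

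FGFR3 is a receptor tyrosine kinase that binds fibroblast growth factors together with heparan sulfate and passes the signal through adaptor proteins to RAS and the ERK kinases. In the cartilage of growing bones it is known as a brake on growth, whereas in many other cells FGF receptors promote division. Dermal fibroblasts make the collagenous matrix of the skin, and their matrix enzymes, contractile proteins and growth factors change during wound healing and fibrosis.

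The members of the comparison were all genes with a probe set carrying exactly 1 gene symbol, taken from 9889 probe sets, 18 of them controls. They came to 7842 genes, and where a gene had several probe sets, the brightest by mean log2 signal on all 3 arrays stood for it. Signals are MAS5 values, a linear hybridisation intensity in arbitrary units that cannot be compared between probe sets. To limit noise from dim spots, signals were raised to a floor at the array's 40th percentile, which was 122 on FGFR3KO and 121 on FGFR3WT. A gene was compared if its signal exceeded the floor on at least 1 of both arrays, which held for 5184 of the 7842 genes. Of these, 4730 were above it on both arrays, 237 on FGFR3KO only and 217 on FGFR3WT only. Where 1 array was at the floor the fold difference is a lower bound, written "at least".

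Fgfr3 itself could not be used to check the labels. Its probe set read 3.76 on FGFR3KO, 1.06 on FGFR3WT and 2.42 on FGFR3Act, far under the floor on every array, and the position of its probes relative to the altered allele is not known here. Fgfr4 was under the floor on all 3 arrays as well, at 7.08, 6.24 and 12.3 in the same order. Fgfr1, the main FGF receptor of mesenchymal cells, read 633 on FGFR3KO, 753 on FGFR3WT and 730.0 on FGFR3Act. Fgfr2 was brighter on FGFR3KO, at 3209 against 1701 and 2032, a 1.89-fold difference from FGFR3WT that did not reach the 2-fold size used below. Among the FGF ligands, Fgf1, Fgf2, Fgf5, Fgf9, Fgf10 and Fgf13 were at the floor on both arrays compared.

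The cells carried the signals of fibroblasts. Of the 16 dermal fibroblast markers on the array, 15 were compared, and the summed signal of the list was 79773 on FGFR3KO, 58684 on FGFR3WT and 56298 on FGFR3Act. Of 20 macrophage and leukocyte markers only Cd14 was above the floor (655 on FGFR3KO and 602 on FGFR3WT), and the summed signal of the list was 1402 on FGFR3KO and 1261 on FGFR3WT against 42622 on FGFR3Act. The other 19 were at the floor on both arrays compared here. By these sums macrophage and leukocyte transcripts were far brighter on FGFR3Act than on the other arrays. The part of such cells in the FGFR3Act signals given below was not tested. Markers of keratinocytes (4 of 11 compared), endothelium (1 of 8), mast cells (1 of 8) and adipocytes (1 of 7) were at or near the floor for the most part, with Krt10, Krt17, Trp63, Cdh5, Kdr, Tek, Cpa3, Kit and Adipoq under it on both arrays. Melanocyte and Schwann markers (3 of 8 compared) and chondrocyte and osteoblast markers (2 of 5) were mostly at the floor too. Of 12 skeletal muscle markers 5 were compared. All 5 had a positive difference, with a median of 0.50 and 0 past 2-fold, and 2 of them were bounds. The summed signal of that list was 4874 on FGFR3KO, 2819 on FGFR3WT and 2359.5 on FGFR3Act. Xist, transcribed from the inactive X chromosome, read 874 on FGFR3KO and 757 on FGFR3WT. The Y-linked gene Eif2s3y read 96.6 on FGFR3KO, under the floor, and 266 on FGFR3WT, while Y-linked Kdm5d and Uty were under the floor on both. The ratio of the 3′ to the 5′ beta-actin control, a measure of RNA integrity, was 1.82 on FGFR3KO, 1.64 on FGFR3WT and 1.44 on FGFR3Act, and its part in the differences was not tested.

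Most genes had like signals on both arrays. The median log2 difference, FGFR3KO minus FGFR3WT, was -0.02 with quartiles of -0.35 and 0.31, and 3938 of the 5184 genes (76.0%) were within 1.5-fold. At least 2-fold higher on FGFR3KO were 100 genes (1.93%), and at least 2-fold lower were 187 (3.61%), together 5.54% of the genes compared. The calls depend on the processing for part of the genes. Of 138 named genes at least 2-fold apart, 44 fell short of that size with the floor at the 60th percentile. After cyclic loess 12 fell short, and after quantile normalisation 7. Genes that did not pass a setting's filter gave no value there and are not in these numbers. Of the 100 higher and 187 lower calls, 50 and 93 remained with the floor at the 60th percentile. Of all calls, 17 of the higher and 30 of the lower were bounds. A difference of at least 3-fold was seen for 15 genes higher and 26 lower, and of at least 4-fold for 3 higher and 12 lower. The calls have a sharp edge in a continuous distribution, since Krt81 (2.003-fold higher) fell just inside the size and Smarcc1 (1.995-fold higher) just outside it, and on the lower side Sdha fell just inside and AI506816 (1.999-fold) just outside. The brightest genes were shifted upwards on FGFR3KO. Among the 548 genes with a signal of at least 3000 on either array the median log2 difference was 0.18, against -0.10 for the 1308 genes between 1000 and 3000, so the lists of abundant transcripts below are given with their value after quantile normalisation too.

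**Figure D1:**
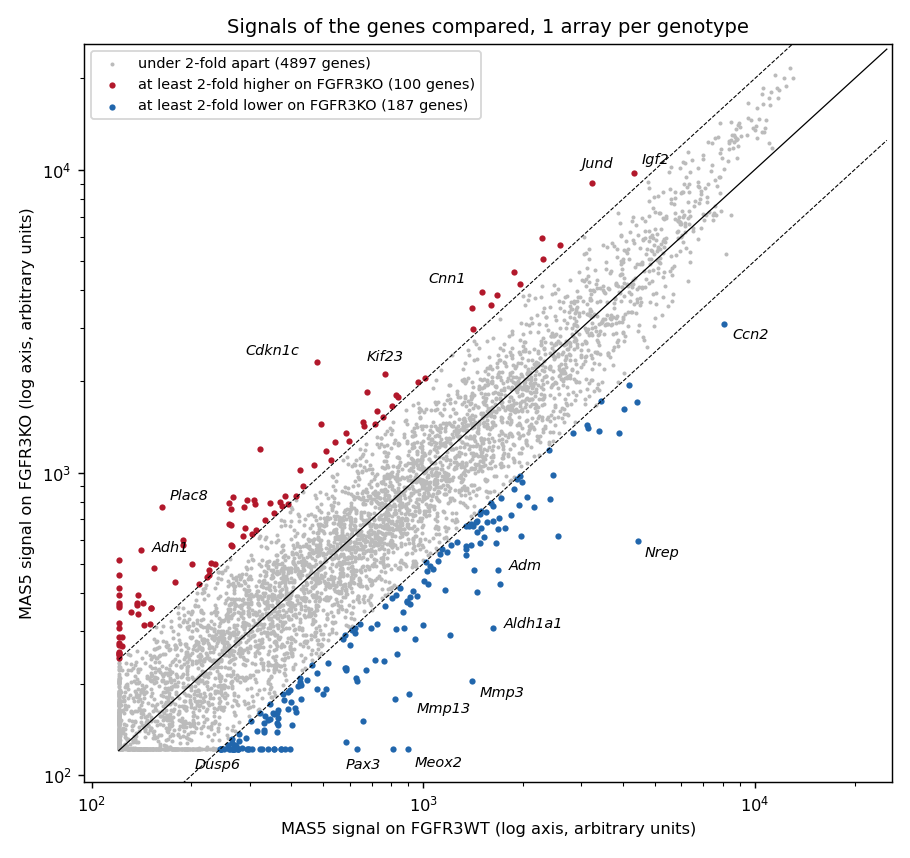
MAS5 signal of each of the 5184 genes compared on FGFR3WT (horizontal, log axis) and on FGFR3KO (vertical, log axis), in arbitrary units and raised to the floor, with 1 point per gene. Dashed lines mark 2-fold differences; the 100 red and 187 blue genes lie outside them, and the cloud of the brightest genes bends above the solid line of equal signal.

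A limited repeat measurement came from genes with more than 1 probe set, read on the same hybridisations. For 9 of the genes at least 2-fold higher there were 11 other probe sets, with a median log2 difference of 0.51. Of these 11, 10 pointed the same way and 0 reached 2-fold. For 12 of the genes at least 2-fold lower there were 15 others with a median of -0.52. Of these 15, 14 pointed the same way and 2, for Ankrd46 and Dnajb6, reached 2-fold. The exceptions in direction were Hat1 and Spast. The direction of a call was thus mostly repeated by other probe sets and its size mostly was not. Among the 482 genes under 2-fold with other probe sets, 220 of 542 other sets had the opposite sign.

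**Figure D2:**
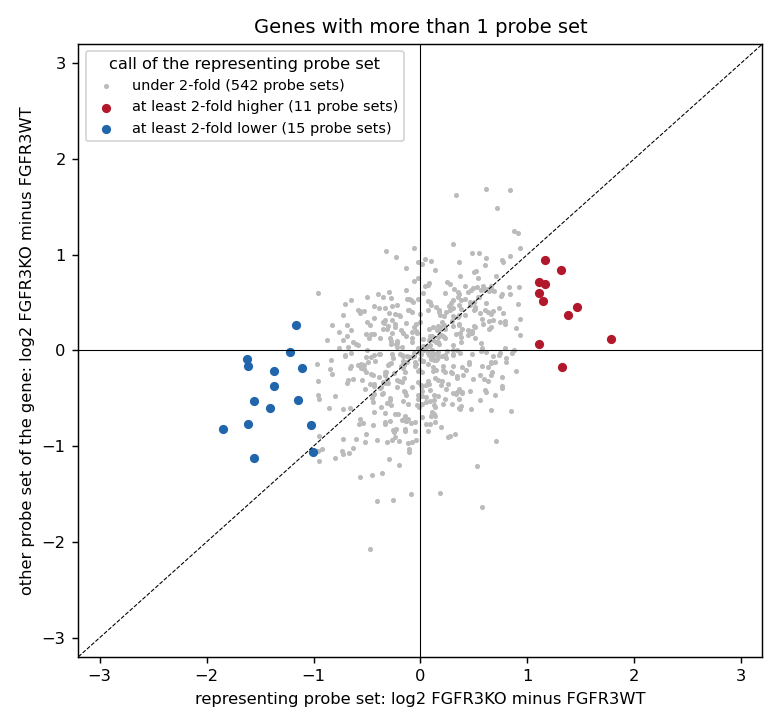
Log2 signal difference, FGFR3KO minus FGFR3WT, of a gene's representing probe set (horizontal) and of its other probe sets (vertical), with 1 point per other probe set. Red points (11) and blue points (15) belong to genes at least 2-fold higher or lower; all but 1 of each colour lie on the same side of 0, mostly nearer to 0 than the dashed line of equal difference.

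Genes of mitosis were higher on FGFR3KO as a group. Of the 31 members compared, 12 were at least 2-fold higher and 0 lower, all 31 had a positive difference, and the median log2 difference was 0.86 against -0.02 over all genes. The background of such calls was 1.93%. The list's FGFR3Act median against the same FGFR3WT array was -1.01, so that by their medians the mutant arrays lay on opposite sides of the FGFR3WT array they share as control. Several mitotic promoters hold the cell cycle genes homology region (CHR), the sequence TTTGAA through which the DREAM and MuvB complexes are known to hold these genes silent in resting cells and activate them in dividing cells. Stretches of 150 bases upstream of the start site are printed for 3 of the 12 genes, chosen because they hold a CHR match within 20 bases before it, shown in capitals as TTTGAA or, where the match is on the opposite strand, TTCAAA (RefSeq, GRCm38.p6).
Cdc20 (chr4:118437344-118437493, minus strand): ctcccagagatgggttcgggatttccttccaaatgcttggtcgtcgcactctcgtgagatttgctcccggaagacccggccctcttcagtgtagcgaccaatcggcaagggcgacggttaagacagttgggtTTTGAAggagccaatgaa
Kif11 (chr19:37376232-37376381, plus strand): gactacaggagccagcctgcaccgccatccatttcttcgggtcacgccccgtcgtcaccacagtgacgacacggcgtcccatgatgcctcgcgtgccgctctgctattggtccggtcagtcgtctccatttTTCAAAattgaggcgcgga
Kif22 (chr7:127042421-127042570, minus strand): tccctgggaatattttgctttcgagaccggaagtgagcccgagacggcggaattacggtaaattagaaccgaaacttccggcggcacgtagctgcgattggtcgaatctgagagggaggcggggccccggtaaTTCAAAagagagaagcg
The match begins 18, 19 and 17 bases before the annotated start of Cdc20, Kif11 and Kif22 respectively, and each stretch is written 5′ to 3′ on the gene's strand. In the 300-base window from 250 bases before to 50 after the start, TTTGAA was found on either strand in 23 of 29 promoters of the mitosis list (79.3%), in 11.8% of the promoters of all genes compared and in 17.9% of all promoters in the RefSeq table. These genes are known for this element, so the share describes the list and adds no evidence for the array result.

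The 12 mitotic genes included 5 kinesins. Kifc1, a minus-end-directed kinesin that focuses spindle poles, read 599 on FGFR3KO, 189 on FGFR3WT and 47.6 on FGFR3Act (3.17-fold higher on FGFR3KO than on FGFR3WT). Kif23, the kinesin of the central spindle in cytokinesis, read 2119.8, 768 and 139 in the same order (2.76-fold). Kif11, which slides spindle microtubules apart, read 672, 263 and 74 (2.55-fold). In each of these the FGFR3KO signal was the highest and the FGFR3Act signal the lowest of the series. The chromosome-arm motor Kif22 (2048 against 1016, 2.02-fold) and Kif20a (737 against 355, 2.08-fold) were also higher, and Kif4 (1.90-fold) and Kif2c (1.73-fold) fell short of 2-fold. Among checkpoint and cytokinesis genes, the spindle checkpoint kinase Ttk read 756, 264 and 74.4 on FGFR3KO, FGFR3WT and FGFR3Act (2.87-fold), and the checkpoint protein Mad2l1 1993, 963 and 481 (2.07-fold). Cdc20, which activates the anaphase-promoting complex, read 2969, 1413 and 330.5 (2.10-fold). Aurka (2.19-fold), Ect2 (2.07-fold) and the centromeric histone Cenpa (2.05-fold) completed the set measured on both arrays, and Tacc3 was at least 2.23-fold higher. Kifc1, Kif11, Aurka and Cenpa differed by 0.73, 0.90, 0.47 and 0.79 on the log2 scale with the floor at the 60th percentile. These fell short of 2-fold, and Tacc3 was too dim to be compared there. Members short of 2-fold included the cyclin Ccnb2 (1.57-fold), Plk1 (1.69-fold), Aurkb (1.79-fold) and Top2a (1.57-fold). The proliferation marker Mki67, in no list, read 578 against 263 (2.20-fold).

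DNA replication genes lay higher by a smaller margin. Of 28 compared, 25 had a positive and 3 a negative difference, with a median log2 difference of 0.44. At least 2-fold higher were 2, beside 1.93% over all genes, and 0 were lower. With the probe sets of a gene averaged, Pclaf differed by 0.17 on the log2 scale. The members past 2-fold were the PCNA-binding factor Pclaf (792 on FGFR3KO, 260.0 on FGFR3WT and 146 on FGFR3Act, 3.04-fold) and the chromatin assembly subunit Chaf1b (317, 150.4 and 134, 2.11-fold). The helicase subunits Mcm2 and Mcm5 were 1.82-fold and 1.60-fold higher. The CHR element was found in 3 of 31 promoters of this list (9.68%), near the share of all genes compared.

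The largest difference upwards belonged to an inhibitor of the cell cycle. Cdkn1c, which encodes the cyclin-dependent kinase inhibitor p57 and is expressed from the maternal allele, read 2315 on FGFR3KO, 479 on FGFR3WT and 274 on FGFR3Act, a 4.83-fold difference. Among the other 15 G1 regulators compared only Ccne1, cyclin E1, reached 2-fold (777 against 376, 2.07-fold), and the list's median was 0.05. Over all genes 1.93% were at least 2-fold higher. The p53-responsive inhibitor Cdkn1a read 7088 and 7113, and its other probe set differed by 0.38 on the log2 scale. Cyclin D1, encoded by Ccnd1, read 1159 on FGFR3KO and 1394 on FGFR3WT, and 5491 on FGFR3Act, and its other probe set differed by 0.46 on the log2 scale in the opposite direction. Mitotic genes and a cell cycle inhibitor were thus both brighter on FGFR3KO, while most other G1 regulators lay under 2-fold.

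Cdkn1c was 1 of 4 imprinted growth regulators at least 2-fold higher, out of 12 compared, with 0 lower, beside 1.93% of all genes higher. The list's median was 0.65, and 0.23 after quantile normalisation. Igf2, the fetal growth factor expressed from the paternal allele, read 9782 on FGFR3KO, 4323 on FGFR3WT and 6386 on FGFR3Act (2.26-fold, and 0.92 on the log2 scale after quantile normalisation). Dlk1, a transmembrane inhibitor of adipocyte differentiation, read 658, 290.4 and 142 (2.27-fold). Its reciprocally imprinted noncoding neighbour Meg3 read 813, 295 and 262 (2.76-fold), with a smaller difference on its other probe set, 886 against 646. FGFR3KO held the highest signal of the 3 arrays for all 4 genes, whereas FGFR3Act lay above FGFR3WT for Igf2 and below it for the other 3. Igf1, the related hormone, was 1.91-fold higher (2716 against 1424), with 774 against 693 on its other probe set. A further pair of secreted growth factors that bind heparin, midkine (Mdk; 810.1 on FGFR3KO, 309 on FGFR3WT, 21.6 on FGFR3Act) and pleiotrophin (Ptn; 500.2, 201 and 88.2), were 2.63-fold and 2.49-fold higher.

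**Figure D3:**
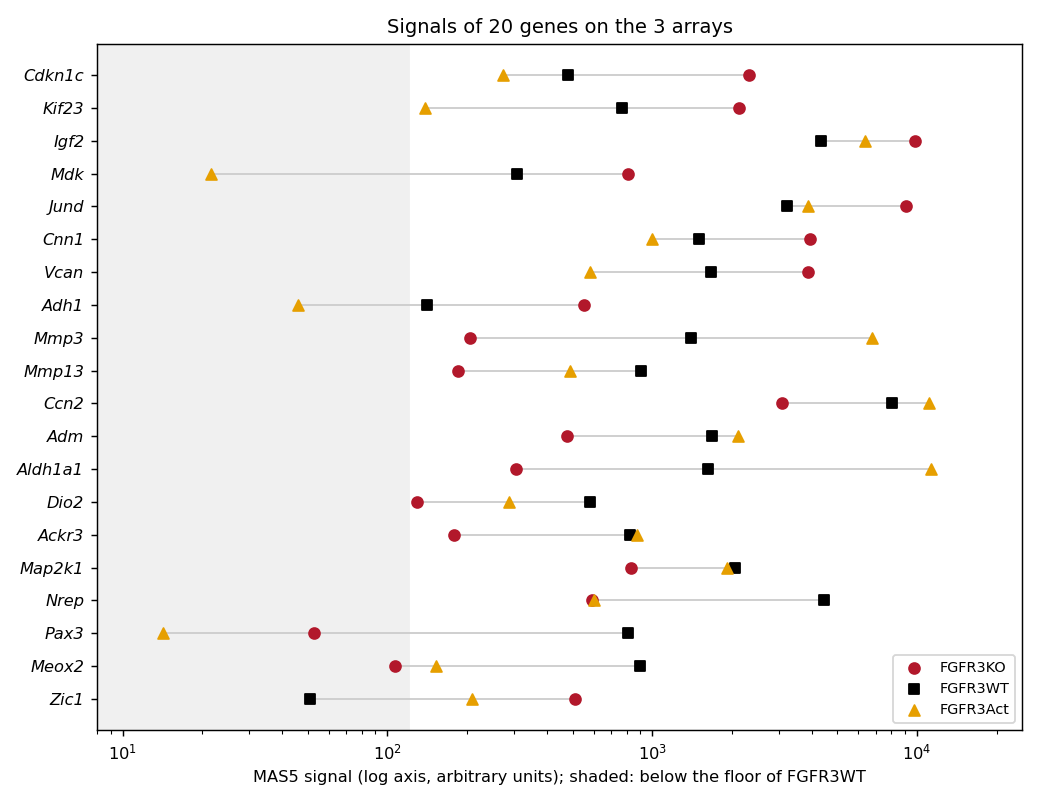
MAS5 signal (log axis, arbitrary units) of 20 genes on FGFR3KO (red circles), FGFR3WT (black squares) and FGFR3Act (orange triangles), 1 array each, with signals under the FGFR3WT floor shaded. From Cdkn1c to Adh1 and for Zic1 the circle is the rightmost point, from Mmp3 to Nrep it is the leftmost, and for Pax3 and Meox2 both mutant arrays lie far left of FGFR3WT.

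Contractile genes were brighter on FGFR3KO. Of 21 members of the list of contractile proteins and targets of serum response factor (SRF), 20 had a positive difference and the median was 0.67, although only 2 reached 2-fold. Over all genes 1.93% were higher by this size. Cnn1, calponin of smooth muscle and myofibroblasts, read 3936 on FGFR3KO, 1507 on FGFR3WT and 1001 on FGFR3Act (2.61-fold). Myh11, smooth muscle myosin heavy chain, read 370.0 on FGFR3KO and was under the floor on the others (86.8 and 68.9), at least 3.06-fold higher. Myh11 differed by 0.04 on the log2 scale with the floor at the 60th percentile. Acta2, the smooth muscle actin that defines myofibroblasts, read 10494 against 6145 (1.71-fold), and Tagln 12228 against 7436 (1.64-fold). The ubiquitous actins moved alike, with Actb at 9803 against 5524 (1.77-fold) and Actg1 at 13829.9 against 9024 (1.53-fold). Many of these transcripts are in the bright range that lay higher on FGFR3KO as a whole, and the list's median was 0.41 after quantile normalisation. Of 8 markers of smooth muscle and pericytes 5 were compared, and the summed signal of the list was 5480 on FGFR3KO, 3014 on FGFR3WT and 1661 on FGFR3Act, with Des, Rgs5 and Abcc9 under the floor on both arrays compared. Mcam and Notch3 lay lower on FGFR3KO (1.53-fold and 1.18-fold). In bulk RNA a larger number of cells of a type and more RNA per cell cannot be told apart, and the part of such cells in the contractile result was not tested.

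SRF binds the CArG box, CC followed by 6 bases of A or T and then GG. It was found in 6 of 18 promoters of the contractile list (33.3%), against 1.54% for all genes compared and 1.63% for all promoters. The stretches before Actg1 and Cnn2 (1.73-fold higher) are printed because they hold a match in capitals, beginning 90 and 56 bases before the start.
Actg1 (chr11:120348496-120348645, minus strand): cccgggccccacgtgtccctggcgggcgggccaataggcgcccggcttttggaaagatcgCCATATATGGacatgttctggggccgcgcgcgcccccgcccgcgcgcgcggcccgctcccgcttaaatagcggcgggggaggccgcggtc
Cnn2 (chr10:79988450-79988599, plus strand): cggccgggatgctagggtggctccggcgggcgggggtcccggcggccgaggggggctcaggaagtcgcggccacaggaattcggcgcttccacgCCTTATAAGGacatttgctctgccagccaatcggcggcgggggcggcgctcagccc
Cnn1 and Acta2 held no CArG box in this window, and the window of Tagln and Myh11 was not analysed here.

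**Figure D4:**
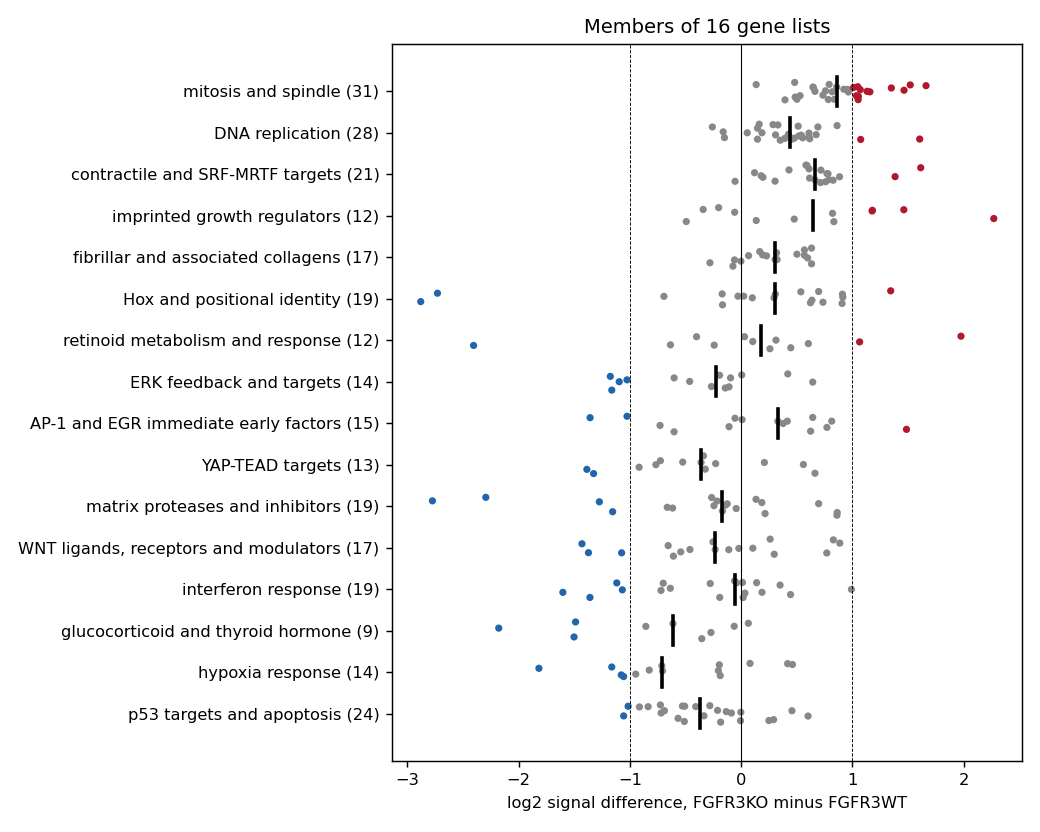
Log2 signal difference, FGFR3KO minus FGFR3WT, of the compared members of 16 gene lists, with 1 point per gene, red or blue where at least 2-fold apart, and a black bar at the list's median. All points of the mitosis list lie right of 0 and its median is 0.86, the hypoxia list has the lowest median at -0.71, and the retinoid and positional identity lists reach far in both directions.

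The matrix genes of fibroblasts showed small median differences upwards, with a few members past 2-fold in either direction. Among 19 small proteoglycans and matricellular proteins 2 were at least 2-fold higher and 2 lower, with a median of 0.11. Of 10 elastic fibre genes 1 was higher by this size and 0 lower (median 0.22), and of 13 basement membrane genes 1 and 0 (median 0.20). Over all genes 1.93% were higher and 3.61% lower. Of 17 collagens 13 had a positive difference, with a median of 0.31, and 0 reached 2-fold. Col1a1 and Col1a2, the chains of type I collagen, read 12570.2 against 8475 (1.48-fold) and 18306 against 11799 (1.55-fold). The other probe set of Col1a1 read 9553 against 9602, and that of Col3a1 differed by -0.87 on the log2 scale where its representing set differed by 0.32. After quantile normalisation the collagen median was 0.07, and the bright genes as a whole had a median of 0.18 without it. The large chondroitin sulfate proteoglycan versican (Vcan) read 3857 on FGFR3KO, 1668 on FGFR3WT and 579.5 on FGFR3Act (2.31-fold). Fbln1, a fibulin of elastic fibres and basement membranes, read 1469, 657 and 645 (2.24-fold), and its other probe sets differed by 0.70 and 0.94 on the log2 scale. The basement membrane proteoglycan perlecan (Hspg2) read 453 against 223 (2.03-fold). Hspg2 differed by 0.33 on the log2 scale with the floor at the 60th percentile, and by 0.98 with an offset of 12 instead of a floor. With the probe sets of a gene averaged, Fbln1 differed by 0.93. Vcan, Fbln1 and Hspg2 were brightest on FGFR3KO.

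The CCN family of matricellular proteins split. Ccn3 was higher on FGFR3KO, at 5635 against 2578 and 1679.7 on FGFR3Act (2.19-fold). Ccn2, the connective tissue growth factor associated with fibrosis, was lower, at 3083 on FGFR3KO, 8061 on FGFR3WT and 11101 on FGFR3Act (2.62-fold). Ccn1 followed the same order, at 982, 2462 and 2982 (2.51-fold lower), and Ccn4, a target of WNT signalling, read 1707, 4419.5 and 1458 (2.59-fold lower). Ccn1 and Ccn2 are classical targets of YAP and TAZ, which act through TEAD factors. Both were the only 2-fold calls among 13 YAP-TEAD targets compared, beside 3.61% lower over all genes. Of the 13, 10 had a negative difference, the list's median was -0.36, and Amotl2 was 1.89-fold lower. The core TEAD site GGAATG was found on either strand in 5 of 12 promoters of the list (41.7%), against 12.1% for all genes compared and 14.7% for all promoters. The Ccn1 stretch is printed with the site in capitals, on the opposite strand as CATTCC and beginning 103 bases before the start.
Ccn1 (chr3:145649986-145650135, minus strand): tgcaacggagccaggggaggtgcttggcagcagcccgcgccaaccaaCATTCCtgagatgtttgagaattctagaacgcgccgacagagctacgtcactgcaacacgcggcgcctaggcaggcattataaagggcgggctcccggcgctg

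Matrix proteases held some of the largest differences downwards. Mmp3, stromelysin-1, read 205 on FGFR3KO, 1405 on FGFR3WT and 6733 on FGFR3Act, 6.85-fold lower on FGFR3KO than on FGFR3WT. Mmp13, the interstitial collagenase of rodents, read 185, 908 and 488 (4.91-fold lower). The sheddase Adam10 read 482 against 1073 (2.23-fold lower), and differed by -0.72 on the log2 scale with its probe sets averaged. Among the tissue inhibitors of these enzymes, Timp2 was lower (577 against 1396, 2.42-fold), whereas Timp1 (14229 against 7829) and Timp3 (10202 against 5603) were 1.82-fold and 1.82-fold higher, short of the 2-fold size. In all, 4 of 19 members were at least 2-fold lower and 0 higher, against a background of 3.61% lower. Mmp3 and Mmp13 are known targets of AP-1 factors, which bind TGACTCA or its reverse complement TGAGTCA. Both promoters held a match, shown in capitals and beginning 46 and 35 bases before the start.
Mmp3 (chr9:7445672-7445821, plus strand): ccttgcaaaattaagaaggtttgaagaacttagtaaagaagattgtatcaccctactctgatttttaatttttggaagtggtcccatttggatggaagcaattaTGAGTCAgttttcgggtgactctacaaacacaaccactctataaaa
Mmp13 (chr9:7272364-7272513, plus strand): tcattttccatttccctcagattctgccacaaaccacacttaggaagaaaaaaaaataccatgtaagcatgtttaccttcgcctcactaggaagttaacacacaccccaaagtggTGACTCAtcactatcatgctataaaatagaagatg
The site was found in 4 of 16 promoters of the list (25%), in 3.97% of those of all genes compared and in 5.2% of all promoters.

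Transcripts of the ERK response were lower where they differed by 2-fold. Of 14 feedback regulators and targets of ERK 11 had a negative difference, 4 were at least 2-fold lower and 0 higher, with a median of -0.23. Over all genes 3.61% were lower and 1.93% higher by this size. Dusp6, the phosphatase that ERK signalling induces to switch ERK off, read 89.2 on FGFR3KO, under the floor, 275 on FGFR3WT and 966 on FGFR3Act, at least 2.26-fold lower. Ier3 read 491, 1049 and 1435 (2.14-fold lower), Fos 317, 646 and 836 (2.04-fold lower) and Bhlhe40 269, 603 and 584 (2.24-fold lower). For Dusp6, Ier3 and Fos the arrays were ordered FGFR3KO, FGFR3WT, FGFR3Act from low to high. The Fos difference was just past 2-fold and fell short of it in 5 of the alternative settings, at -0.95 on the log2 scale after quantile normalisation. Bhlhe40 differed by -0.77 with the floor at the 60th percentile, and Ier3 by -0.996 after cyclic loess. The list was not uniform, since Fosl1 was 1.56-fold higher on FGFR3KO (199 against 127).

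The kinases and adaptors between receptor and ERK were examined in a list composed after the values of these genes had been seen, so its counts support nothing. Of 16 compared, 3 were at least 2-fold lower and 12 had a negative difference. Map2k1, the kinase MEK1 that phosphorylates ERK, read 828 on FGFR3KO, 2049 on FGFR3WT and 1918 on FGFR3Act (2.47-fold lower). The adaptor Grb2 read 161, 353 and 187 (2.19-fold lower) and its partner Gab1 307, 697 and 500.4 (2.27-fold lower). Map2k2, the paralogue of Map2k1, was 1.48-fold higher.

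Immediate early factors went both ways, with 9 of 15 higher and 6 lower and a median of 0.33. Jund, an AP-1 subunit, read 9062 on FGFR3KO, 3232 on FGFR3WT and 3874 on FGFR3Act (2.80-fold higher). Its partner Fos was lower, as given above, and so was Zfp36, which destabilises inflammatory messenger RNAs (162, 414 and 247, 2.56-fold). Egr1 read 261 against 397 (1.52-fold lower).

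The hypoxia response had the lowest median of the lists plotted, -0.71 over 14 members, of which 11 had a negative difference, 4 were at least 2-fold lower (3.61% over all genes) and 0 higher. Adm, the vasodilator peptide adrenomedullin, read 476 on FGFR3KO, 1678 on FGFR3WT and 2115 on FGFR3Act (3.53-fold lower). Egln1, the prolyl hydroxylase that marks HIF-1alpha for degradation and is itself induced by HIF, read 576, 1215 and 1213 (2.11-fold lower). The mitophagy receptor Bnip3 read 742, 1543 and 1329 (2.08-fold lower), and Bhlhe40 belongs to this list too. After cyclic loess Egln1 and Bnip3 differed by -0.97 and -0.96 on the log2 scale, just short of 2-fold. Bhlhe40 differed by -0.77 with the floor at the 60th percentile. For Adm, Egln1 and Bnip3, FGFR3WT and FGFR3Act lay closer to each other than to FGFR3KO. Ndrg1 was 1.93-fold lower. Glycolytic enzymes, several of them HIF targets, had a median of -0.14 over 15 members, of which 10 had a negative and 5 a positive difference. Among them Pfkp was 1.43-fold lower and Ldha 1.38-fold higher. The only member past 2-fold was Bpgm, which makes bisphosphoglycerate, at 619 on FGFR3KO, 2556 on FGFR3WT and 1448 on FGFR3Act (4.13-fold lower). The HIF core motif ACGTG was found in 11 of 16 promoters of the hypoxia list (68.8%), 26.4% of those of all genes compared and 19.6% of all promoters, and Adm held none in its window.

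**Figure D5:**
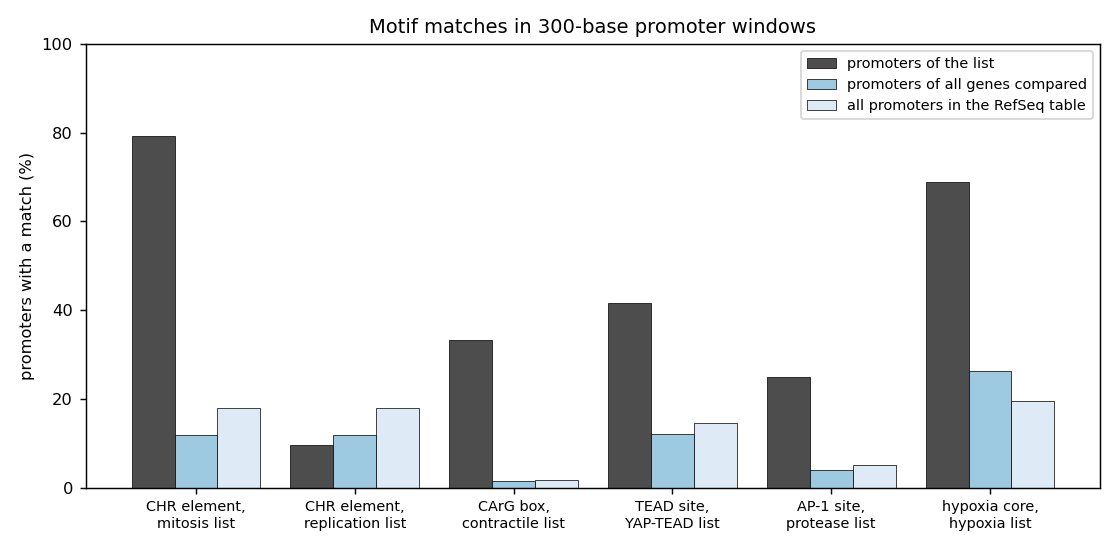
Share of 300-base promoter windows (percent, bars from 0) with a match to a motif, for the promoters of a gene list (dark), of all genes compared (blue) and of all promoters in the RefSeq table (pale). The CHR element is in 79.3% of the promoters of the mitosis list and 9.68% of those of the replication list, and the other 4 lists shown lie above both backgrounds for their motif.

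The motifs, the pairs of motif and list and the promoters printed were chosen after the list values and the matches were known, 6 motifs having been searched in each list. The contractile, YAP-TEAD, protease and hypoxia lists hold known targets or response genes. As for the CHR element, their shares describe the lists and add no evidence for the array results. Across the genes called, the shares stayed near the background for most motifs: AP-1 sites were in 3.03% of the promoters of genes at least 2-fold lower, ACGTG in 26.3% and GGAATG in 14.6%. TTTGAA was in 21.3% of the promoters of genes at least 2-fold higher, a set that holds the mitotic genes named above. The sixth motif, the NF-Y box CCAAT, was in 72.4% of the promoters of the mitosis list, 37.2% of those of all genes compared and 37.4% of all promoters. Both strands were searched for each motif, and a CArG box that opens with CCAAT or closes with ATTGG also counts as an NF-Y box, while no other motif lies within another. A match describes the letters of the window and does not show that a factor binds there.

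Lists of stress responses had medians on both sides of 0. Of 24 p53 targets and apoptosis genes compared 20 had a negative difference, with a median of -0.37. At least 2-fold lower, beside 3.61% over all genes, were 2, Bnip3 and Sesn1 (132 against 266, 2.02-fold lower). After quantile normalisation these differed by -0.97 and -0.98 on the log2 scale, short of 2-fold. Mdm2 and Gadd45a, direct p53 targets, were 1.65-fold and 1.65-fold lower, whereas Cdkn1a was level on its representing probe set. Of 16 chaperones of the endoplasmic reticulum 14 had a negative difference with a median of -0.28; Herpud1 was 2.10-fold lower and Hspa5, the master chaperone BiP, 1.46-fold lower. Genes of the amino acid response and tRNA synthetases had 12 positive and 8 negative differences with a median of 0.14. Of 18 cytosolic heat shock genes 14 had a negative difference with a median of -0.17. Dnajb1, a cytosolic co-chaperone induced by heat shock, read 223 on FGFR3KO, 584 on FGFR3WT and 249.6 on FGFR3Act (2.62-fold lower). The counts of a list of autophagy genes support nothing, since it was composed after their values were seen: 18 of 22 had a negative difference and 5 were at least 2-fold lower, among them Atg5 (2.25-fold) and Becn1 (2.12-fold), both needed to form autophagosomes. Lamp2, a lysosomal membrane protein, was 2.15-fold lower on its representing probe set and by 0.19 on the log2 scale on its other.

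Of 19 transcription factors of positional identity compared, 13 had a positive and 6 a negative difference with a median of 0.31, and 1 was at least 2-fold higher and 2 lower, beside 1.93% and 3.61% over all genes. Meox2, a homeobox factor of mesoderm, read 107 on FGFR3KO, 898 on FGFR3WT and 152 on FGFR3Act, at least 7.36-fold lower on FGFR3KO. Pax3, of the neural crest and dermomyotome, read 52.8, 809 and 14.2, at least 6.64-fold lower. Zic1, a factor of the dorsal embryo outside that list, went the opposite way, at 513 on FGFR3KO, 51.1 on FGFR3WT, under the floor, and 209 on FGFR3Act, at least 4.25-fold higher. For all 3 genes both mutant arrays were on the same side of FGFR3WT. Zic1 differed by 0.51 on the log2 scale between FGFR3KO and FGFR3WT with the floor at the 60th percentile. Hoxb5 was at least 2.54-fold higher (307 against 105), and Hoxb6, Hoxb7 and Hoxc8, at or near the floor on FGFR3WT, read 227, 228 and 201 on FGFR3KO against 83, 121 and 59.2. Tbx15, of the dorsal skin, was 1.62-fold lower. Such genes keep the place of origin of cultured fibroblasts, and the skin site each culture was taken from is not stated in the labels, and its part in these differences was not tested. Nrep, a neuronal protein also found in healing wounds, had the largest difference among genes above the floor on both arrays and likewise set FGFR3WT apart, with 594 on FGFR3KO, 4433 on FGFR3WT and 602 on FGFR3Act (7.46-fold lower).

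Modulators of WNT signalling were among the genes furthest apart, including a pair outside the fixed WNT list. Rspo2, an R-spondin that potentiates WNT signals, read 107 on FGFR3KO and 631 on FGFR3WT, at least 5.18-fold lower, while Lgr5, an R-spondin receptor, read 359 against 47.5, at least 2.98-fold higher. Both are dim genes, and with the floor at the 60th percentile Rspo2 differed by -0.84 and Lgr5 by -0.00659 on the log2 scale. Within the list, the secreted inhibitors Dkk2 (185 against 499, 2.70-fold) and Dkk3 (1347 against 2835, 2.11-fold) were lower, and Sfrp1 and Sfrp2 were 1.85-fold and 1.78-fold higher. Over the 17 members of the list compared, 3 were at least 2-fold lower, 0 higher and the median was -0.23, beside 3.61% lower and 1.93% higher over all genes. Rbpj, the transcription factor of the Notch pathway, read 167 on FGFR3KO, 412 on FGFR3WT and 878 on FGFR3Act (2.47-fold lower).

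Enzymes of vitamin A metabolism differed in opposite directions. Aldh1a1, which oxidises retinaldehyde to retinoic acid, read 306 on FGFR3KO, 1619.8 on FGFR3WT and 11271 on FGFR3Act (5.30-fold lower). Adh1, which oxidises retinol and other alcohols, read 555, 141 and 45.8 (3.94-fold higher). By these signals the arrays were in opposite order for successive enzymes. However, Adh1 was under the floor on FGFR3Act and near it on FGFR3WT, so the order of these 2 arrays is not resolved for it. With the floor at the 60th percentile Adh1 differed by 0.62 on the log2 scale between FGFR3KO and FGFR3WT. The retinoic acid binding protein Crabp1 read 698, 333 and 1191 (2.09-fold higher than FGFR3WT), and the median of the 12 members was 0.18.

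Genes of hormone handling were lower. Of 9 members of the glucocorticoid and thyroid list 8 had a negative difference, 3 were at least 2-fold lower (3.61% over all genes) and the median was -0.61. Dio2, the deiodinase that makes active thyroid hormone, read 129 on FGFR3KO, 584 on FGFR3WT and 287 on FGFR3Act (4.53-fold). Hsd11b1, which regenerates active glucocorticoid, read 410.2, 1162 and 156 (2.83-fold), and the glucocorticoid-induced kinase Sgk1 767, 2152 and 2041 (2.81-fold). FGFR3Act was the lowest of the series for Hsd11b1 and level with FGFR3WT for Sgk1.

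Receptors and response genes of the immune system were mostly lower where they differed by 2-fold. Ackr3, a scavenger receptor for CXCL12, read 178 on FGFR3KO, 823 on FGFR3WT and 873 on FGFR3Act (4.62-fold). Tnfrsf11b, the secreted decoy receptor osteoprotegerin, read 1356, 3887 and 3344 (2.87-fold). Both subunits of the interleukin-13 receptor were lower, Il4ra at 784, 1949.5 and 1061 (2.49-fold) and Il13ra1 at 125, 273 and 123 (2.18-fold). For this pair FGFR3Act also lay well below FGFR3WT. Il1rn, the antagonist of the interleukin-1 receptor, was 2.44-fold higher (435 against 178). Over the 24 chemokines, cytokines and receptors compared, 5 were at least 2-fold lower and 1 higher, with a median of -0.04, beside 3.61% and 1.93% over all genes. Among 19 interferon response genes, 4 were at least 2-fold lower and 0 higher with a median of -0.06, led by Ifit1 (122 against 372, 3.04-fold) and the GTPase Iigp1 (227 against 582, 2.57-fold). Ifit1 was barely above the floor on FGFR3KO. With the floor at the 60th percentile Ifit1, Iigp1 and Ifit3 differed by -0.08, -0.72 and -0.34 on the log2 scale. The remaining call, Gbp3, differed by -0.98 after cyclic loess. The rest of these lists lay on both sides of 0. Of 11 genes of MHC antigen presentation 1 was at least 2-fold higher, H2-M10.1 (482 against 154), and 1 lower, H2-DMa (at least 2.27-fold). With probe sets averaged, H2-M10.1 differed by 0.33 on the log2 scale.

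Several lists had few or no 2-fold calls. Of 19 cytosolic ribosomal proteins 18 had a positive difference with a median of 0.47, which became 0.07 after quantile normalisation. The ribosomal exception was Rpl22, 1.91-fold lower. No member of the TGF-beta, activin and BMP pathway (21 compared, median 0.07) or of cholesterol synthesis and uptake (14, median 0.04) reached 2-fold. Among 34 subunits of the mitochondrial respiratory chain 2 were at least 2-fold lower, beside 3.61% over all genes, and the median was 0.11.

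Further genes stood at the edges of the distribution. Higher on FGFR3KO were Plac8, a cysteine-rich protein (769 on FGFR3KO, 163 on FGFR3WT and 200.1 on FGFR3Act, 4.70-fold), and Clca3a1, of the family of calcium-activated chloride channel regulators (1197, 321 and 402, 3.72-fold). The acetyltransferase Kat2a read 459 and the connexin Gjb2 394, both under the floor on the other arrays, at least 3.80-fold and 3.26-fold higher. Nrp1, the semaphorin and VEGF co-receptor, was 2.44-fold higher (4577 against 1877), and the fatty acid binding protein Fabp5 2.73-fold higher (1847 against 677). Lower were the Fanconi anaemia gene Fancc (151, 656 and 155, 4.34-fold), the protein kinase A inhibitor Pkia (291, 1203 and 953, 4.13-fold) and the inhibitory G protein subunit Gnai1 (239, 761 and 932, 3.19-fold). With the probe sets of a gene averaged, Gnai1 differed by -0.17 on the log2 scale. FGFR3KO alone stood apart for Pkia and Gnai1, and FGFR3WT alone for Fancc. The water channel Aqp1 and the keratin Krt7 were under the floor on FGFR3KO and read 382 and 341 on FGFR3WT, at least 3.13-fold and 2.80-fold lower. Kat2a, Gjb2, Fancc and Aqp1 differed by 0.35, 0.13, -0.90 and -0.11 on the log2 scale with the floor at the 60th percentile. Krt7 was too dim to be compared there.

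Because mutant and wild-type mice can differ in the chromosome segment around an altered allele, the genes nearest Fgfr3 are given. Among the 20 compared genes on each side in the RefSeq gene order, 1 of 40 was at least 2-fold higher (Tacc3, a mitotic gene named above) and 1 at least 2-fold lower (Rab28, 374 against 891, 2.38-fold). The shares over all genes were 1.93% higher and 3.61% lower. The part of such a segment in the differences was not tested.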

How the data were processed

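Total RNA of cultured mouse dermal fibroblasts was hybridised to Affymetrix arrays, 1 per genotype. The deposited values are linear hybridisation intensities that the authors made with MAS5, per the submitters' processing notes; its version and scaling target are not given there. Arrays have no read depth, and their number limits the precision. Probe sets were named from the platform's annotation, with symbols updated through RefSeq (9041 of 9053 probe sets with 1 symbol). Signals were raised to each array's 40th percentile and differences taken as log2(FGFR3KO) minus log2(FGFR3WT), with Python 3.11.15, pandas 2.3.3 and numpy 2.4.6. Quantile and cyclic loess normalisation used limma 3.58.1 in R 4.3.3. The calculation was tested on simulated data. A 2-fold difference is a fixed size, not a test. Genes named are the 30 furthest apart per direction on both arrays, the 15 largest bounds per direction and list members at least 2-fold apart or, where there were fewer than 4 of these, the furthest apart. From the sets of 30 and 15, clone names and genes with another measured probe set in the opposite direction were left out. The naming rule yields more genes than the text describes, and those printed, with some members under 2-fold and genes such as Mki67 given beside them, were picked from it after their values were seen. The comparison, its members and the gene lists were chosen with earlier results of these data known, and the ERK cascade and autophagy lists after the values of their genes. Alternatives were other scalings, floors, filters and probe set rules. Promoters are RefSeq's, build GRCm38.p6.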

Additional observations from a re-analysis of the deposited data

Results flagged for a closer look

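Some signals outside the genes compared also differed by over 2-fold. The 18S ribosomal RNA controls were higher on FGFR3KO than on FGFR3WT, 2.43-fold at the 3′ probe set and 2.44-fold at the 5′ probe set, and the Fas control probe set was 2.08-fold lower. Of the probe sets without exactly 1 gene symbol, 460 were compared; 6 had at least a 2-fold higher signal on FGFR3KO and 16 a lower one of that size. Their part in the differences between genes was not tested.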

How the results depend on the processing

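No paired analysis was possible because each group has 1 array, and no array could be left out. The counts of 100 higher and 187 lower genes were 113 and 150 after quantile normalisation, 109 and 158 after cyclic loess, 109 and 160 after centring each array on its median, and 92 and 183 when the probe sets of a gene were averaged. The floor moved them most, to 271 and 321 at the 20th percentile and to 50 and 93 at the 60th, where fewer dim genes pass. Of 138 named genes at least 2-fold apart, 75 remained so in each setting that gave a value. A gene that did not pass a setting's filter gave no value there, so the 75 include dim genes not compared at the higher floor. The difference of Lgr5 turned from positive to -0.00659 at the 60th percentile floor. List medians changed sign in 28 of 617 pairs of list and setting, and in 11 of the 307 pairs whose median was at least 0.2 in size, which are given here. Under quantile normalisation the dermal fibroblast markers had a median of -0.0732. At the 20th percentile WNT genes had one of 0.0181. At a 60th percentile floor the median was -0.90 for Fanconi and homologous recombination genes, 0.22 for MHC genes, 0.21 for sex-linked transcripts and -0.18 for keratinocyte markers. Sex-linked transcripts also had a median of 0.21 with both arrays above the floor. With no filter, WNT, MHC, sex-linked and endothelial lists had a median of 0.0136, the value of genes at the floor on both arrays. The medians of imprinted genes (0.23) and ribosomal proteins (0.07) were lower under quantile normalisation. The cause of these changes was not tested. Dim genes are limited by signal over background, since their differences depend on the floor.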

Other observations

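Further genes at least 2-fold apart, in none of the lists, are given as values. Among those higher on FGFR3KO were Scx, the transcription factor of tendon progenitors (1528 against 758 on FGFR3WT), Sox11, of embryonic mesenchyme and nerve (676 against 259), and Tfpi, an inhibitor of coagulation (1265 against 542). The amine oxidase Aoc3, known from smooth muscle, endothelium and adipocytes, read 788 against 310.3. Among those lower were the sialic acid activating enzyme Cmas (283 against 946), the ubiquitin ligase Rnf13 (403 against 1451) and Jam3, a junctional adhesion molecule (239.9 against 714). Gdf10, a secreted relative of the BMPs, read 709 on FGFR3KO, 1695 on FGFR3WT and 427 on FGFR3Act. These genes were picked after their values were seen.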
